A study of Mus musculus with 6 samples.

Results

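The subject is the proteasome gene family in DP42 cells. DP42 is a mouse myeloma line, that is, one derived from malignant plasma cells. Members were the genes whose platform symbol starts with Psma, Psmb, Psmc, Psmd, Psme, Psmf or Psmg followed by a digit, pseudogenes left out, and 49 of the 22180 genes measured met this rule. The myeloma cells were kept for 24 h alone, with mouse B cells, which the design text calls the control, or with mouse neutrophils, labelled "neutrophils (IMC)", and their total RNA was measured on Affymetrix arrays. Each of the 3 groups held 2 arrays, and a flow sort parted the co-cultured populations before lysis. The labels give neither a genotype, a strain nor an age for the partner cells, and whether replicate arrays stem from independent cultures is not stated. The p-values below therefore reflect the spread between arrays alone, and that spread may be technical. All 3 comparisons share arrays, so their differences are given side by side and are not independent of each other.

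The proteasome degrades proteins tagged with ubiquitin. Its core particle is a stack of rings of alpha subunits, which gate entry, and beta subunits, of which Psmb5, Psmb6 and Psmb7 carry the proteolytic sites, while a regulatory particle of ATPases and other subunits recognises, deubiquitinates, unfolds and feeds in the substrate. Interferons are known to induce Psmb8, Psmb9 and Psmb10, which take the places of Psmb5, Psmb6 and Psmb7 in newly assembled immunoproteasomes, together with Psme1 and Psme2, the subunits of the PA28 activator. Plasma cells secrete large amounts of protein, and myeloma is treated with proteasome inhibitors.

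The promoters of 3 of the 5 interferon-inducible members, Psmb9, Psmb8 and Psme1, are shown as examples. Those of Psmb10 and Psme2, which belong to the same set, are not shown. The sequences are from RefSeq on GRCm38.p6, from 250 bases before to 50 after the start of transcription, read 5′ to 3′ on the strand of the gene. Capitals mark a match to one of 3 motifs searched on both strands, the interferon-stimulated response element (GAAA, any 2 bases, GAAA), the interferon gamma activated site (TTCNNNGAA) or CCAAT. Psmb9 lies on the minus strand (chr17:34187281-34187580), Psmb8 on the plus strand (chr17:34197945-34198244) and Psme1 on the plus strand (chr14:55578244-55578543).
Psmb9: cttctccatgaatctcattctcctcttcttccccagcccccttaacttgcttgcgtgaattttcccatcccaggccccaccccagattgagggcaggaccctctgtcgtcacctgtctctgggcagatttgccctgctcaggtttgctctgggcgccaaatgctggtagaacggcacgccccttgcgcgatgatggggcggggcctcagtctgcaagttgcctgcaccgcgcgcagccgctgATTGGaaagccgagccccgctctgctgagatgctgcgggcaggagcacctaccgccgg
Psmb8: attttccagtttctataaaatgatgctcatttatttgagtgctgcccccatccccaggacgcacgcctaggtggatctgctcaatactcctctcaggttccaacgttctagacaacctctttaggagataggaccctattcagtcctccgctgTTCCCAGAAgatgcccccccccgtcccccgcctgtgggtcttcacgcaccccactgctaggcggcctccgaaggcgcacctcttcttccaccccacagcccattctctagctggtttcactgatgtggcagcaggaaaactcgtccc
Psme1: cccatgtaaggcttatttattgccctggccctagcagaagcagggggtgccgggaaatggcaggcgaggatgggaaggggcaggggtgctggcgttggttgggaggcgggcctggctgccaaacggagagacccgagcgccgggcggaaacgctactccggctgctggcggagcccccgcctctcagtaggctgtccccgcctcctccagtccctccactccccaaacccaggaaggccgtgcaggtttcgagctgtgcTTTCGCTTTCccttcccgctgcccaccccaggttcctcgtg
The Psmb9 window held CCAAT on the opposite strand, 8 to 4 bases before the start. The Psmb8 window held the activated site 97 to 89 bases before the start, and the Psme1 window held the response element on the opposite strand just after the start. No other match, and none of the antioxidant response element core (TGACNNNGC) that was also searched, was in these windows, so none overlapped another. Windows were found for 41 of the 49 members (45 windows). The response element was in 5 of these 45 windows (11.1%), those of Psmb3, Psmd4, Psmd9, Psme1 and Psmg4, and in 3.44% of the 32851 windows of all genes. The activated site was in 3 (Psmb8, Psmd2 and Psmg1, 6.67%) against 8.30% of all windows, CCAAT in 16 (35.6%) against 37.4%, and the antioxidant core in 6 (13.3%) against 12.4%. A match is a run of letters and not a measured binding site.

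The arrays were checked first against cell type markers, since co-culture titles name the partner cell rather than DP42. Irf4, a transcription factor of plasma cells, stood at 10.84 and 10.74 in culture alone, 10.79 and 10.68 beside B cells, then 10.87 and 10.98 beside neutrophils (log2), and Xbp1, which drives their secretory programme, at 9.99 and 10.07, 10.14 and 9.90, and 10.18 and 10.16. Both were bright in every group. Of the other measured plasma cell markers, Slamf7 (mean over the arrays 11.98) and Sdc1 (8.53) lay above most genes. Prdm1 (6.84) and Tnfrsf17 (5.99) were dim, above 38.4% and 19.0% of genes. In limma's test 0 of 6 measured plasma cell markers passed in any comparison, and at an unadjusted p under 0.05 Tnfrsf17 was lower between the co-cultures and Prdm1 higher with neutrophils than alone. The mean of 14 neutrophil markers was 6.54 and 6.62 alone, 6.63 and 6.70 beside B cells, then 7.09 and 7.14 beside neutrophils. In limma's test 1 of them, the granule protein gene Ngp, rose in neutrophil against B-cell co-culture, and 5 rose against culture alone. The mean of 7 mature B cell markers ran from 9.25 to 9.41 over the 6 arrays, and 0 of these genes passed limma's test, with Cr2 lower at an unadjusted p under 0.05 in both comparisons with neutrophils. Of the other lists, Ly6c2 among 7 monocyte and macrophage markers rose in both comparisons with neutrophils, and no other measured marker of monocytes and macrophages, dendritic cells, T and NK cells or erythroid cells passed. The part of carried neutrophil RNA in the differences of the proteasome genes was not tested.

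Of the members, 46 lay at or above the median mean level of all genes, and these 11090 genes are called bright genes below. The 3 dimmer members were Psma5, which lay above 24.2% of genes, and the tissue-restricted Psmb11 and Psma8, above 38.7% and 40.1%. Psma4 was not among the members, because its probe sets also name another gene. The symbols Psmc3ip and Psme3ip1 met the rule, but the first encodes a cofactor of meiotic recombination and the second a protein that binds Psme3, and neither is a subunit.

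No proteasome gene passed the test in any of the comparisons. With neutrophils the members were, for the most part, slightly brighter than with B cells, with a median difference of 0.15 (log2), but so were bright genes in general, with a median of 0.13. Without B-cell replicate 2 these medians were 0.068 and 0.055. The largest differences among the members were in the assembly chaperone Psmg4 (0.33 ± 0.12, SE) and in the inducible subunit Psmb9 (0.32 ± 0.10). Against culture alone the median was 0.10, with 0.11 for bright genes, and Psmb9 stood highest, at 0.30 ± 0.10. Between B-cell co-culture and culture alone the median was -0.03, with -0.01 for bright genes.

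In limma's test on all 22180 genes, 0 of 49 members passed an adjusted p of 0.05 in neutrophil minus B-cell co-culture, where 11 genes (0.0496%) did, and their adjusted p ran from 0.18 to 0.976. At an unadjusted p under 0.05, 8 members were higher (16.3%) and 0 lower, against 8.1% of all genes higher and 12% lower, and 14.4% of bright genes higher and 3.93% lower. The arrays of both groups were apart in 27 members that were higher with neutrophils (55.1%) and in 1 that was lower, where 30% of all genes and 52.1% of bright genes were apart and higher, and 26.7% of all genes apart and lower. The number of members that passed limma's test changed when B-cell replicate 1 was left out. That leaves B-cell replicate 2, the lowest array in 34 of 49 members. Without B-cell replicate 1, 17 members passed the test (34.7%), all of them higher with neutrophils, in a fit that assumes the lone B-cell array to vary like the other groups, and in that fit 11.7% of all genes and 22% of bright genes passed as higher. The 17 included Psmb9, Psmb10 and Psme1 of the inducible set, and Psmd10 had the largest difference among them, 0.54. Without any other array the count stayed at 0.

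In neutrophil co-culture minus culture alone, 331 genes (1.49%) passed limma's test and 0 of 49 members did, with adjusted p from 0.184 to 0.985. At an unadjusted p under 0.05, 4 members were higher (8.16%) and 1 lower, against 5.97% and 11.7% of all genes and 9.59% and 2.71% of bright genes. The arrays were apart in 31 members that were higher (63.3%) and 2 that were lower, against 35.6% and 27.4% of all genes, and 60.1% of bright genes were apart and higher. In B-cell co-culture minus culture alone, 0 genes (0%) passed, members included. At an unadjusted p under 0.05, 2 members were higher and 1 lower in limma's test, against 1.61% and 2.3% of all genes and 0.902% and 1.79% of bright genes. The arrays were apart in 5 members that were higher and 13 that were lower, against 13.5% of all genes each way and 10.7% and 14.8% of bright genes.

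The 95% intervals were taken gene by gene and reflect the spread between these arrays alone. They are not a bound on the change between independent cultures. In neutrophil minus B-cell co-culture the upper bound lay under a 1.5-fold difference (0.58 in log2) for 45 of the 49 members, in neutrophil co-culture minus culture alone for 47, and in B-cell co-culture minus culture alone for all 49. The members that reached past 1.5-fold in the first comparison were Psmb10, Psmd6, Psmd10 and Psmg4, and in the second Psmd6 and Psmd10, while the lower bound of Psma8 there reached -0.60.

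**Figure D1:**
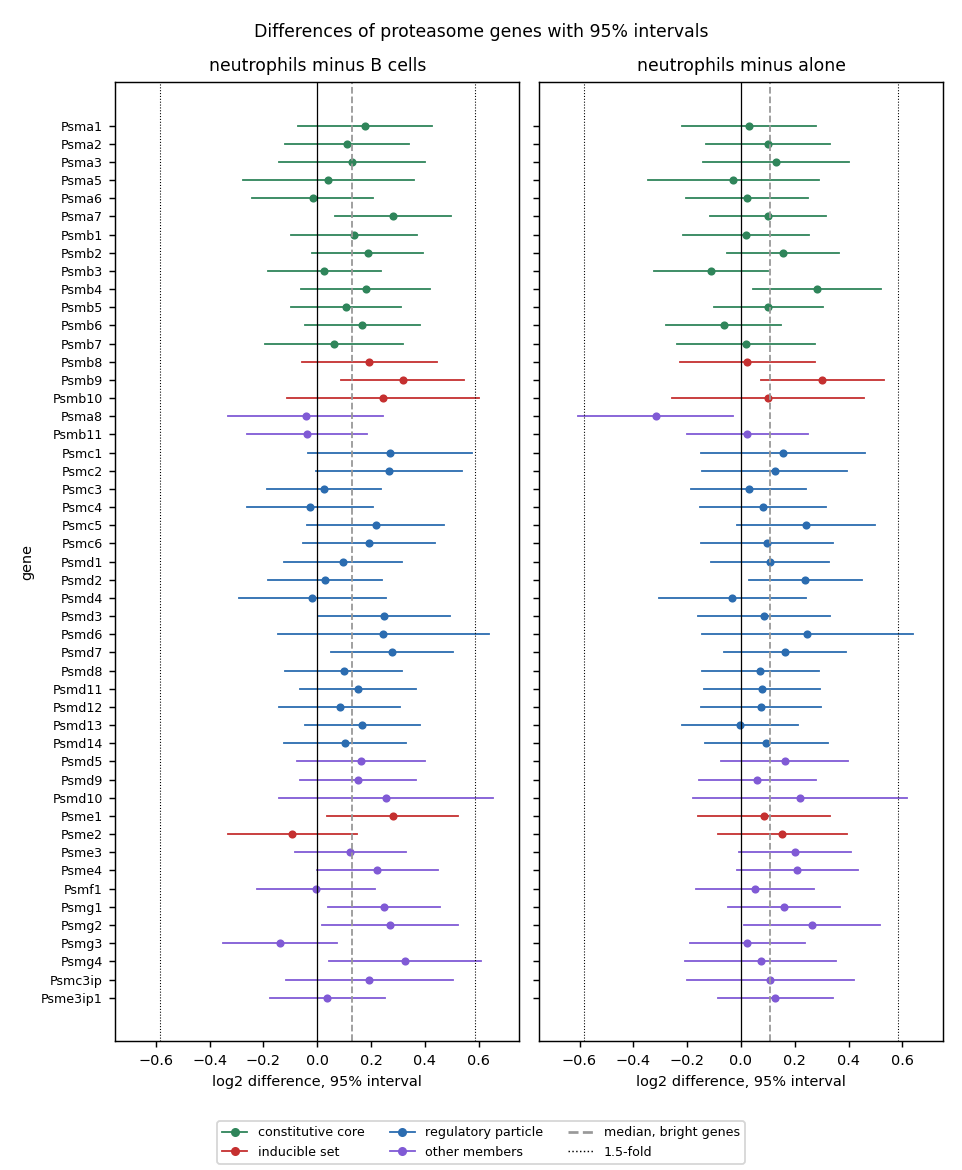
Log2 difference (x axis) of each proteasome gene (y axis) with its 95% interval from the fit over all genes, for neutrophil minus B-cell co-culture (left) and neutrophil co-culture minus culture alone (right), coloured by part of the complex. Dashed grey lines mark the median of bright genes (0.13 and 0.11) and dotted lines a 1.5-fold difference; most points lie around the dashed line, with Psmb9 the furthest right in the right panel (0.30) and Psma8 the furthest left (-0.32).

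The ring of alpha subunits was represented by 6 genes. Psma7 stood at 10.51 and 10.56 alone, 10.40 and 10.31 beside B cells, then 10.59 and 10.68 beside neutrophils, so that both neutrophil arrays lay above all others and both B-cell arrays below. Its difference between the co-cultures was 0.28 ± 0.09 (adjusted p = 0.193, limma), the largest of the alpha subunits, and Psma6 had the smallest at -0.02. Against culture alone the differences with neutrophils ran from -0.03 in Psma5 to 0.13 in Psma3. Psma5, on a dim probe set, read 6.08 and 6.5 alone, 6.15 and 6.29 beside B cells, then 6.29 and 6.23 beside neutrophils, so the spread within culture alone held all the other arrays. With B cells against culture alone, Psma7 was lowest at -0.18 and Psma6 highest at 0.04.

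Psmb1 to Psmb4 encode beta subunits that complete the inner rings and carry no proteolytic site. Psmb4 stood at 10.22 and 10.13 alone, 10.38 and 10.17 beside B cells, then 10.42 and 10.49 beside neutrophils. The neutrophil arrays were highest, with a difference of 0.28 ± 0.10 from culture alone (adjusted p = 0.223, limma), and one B-cell array lay close to them. With neutrophils against culture alone Psmb3 was the 1 gene of this class with a negative difference. It read 7.97 and 8.0 alone, 7.80 and 7.89 beside B cells, then 7.91 and 7.84 beside neutrophils, with a difference of -0.11 ± 0.09 from culture alone with neutrophils and of -0.14 ± 0.09 with B cells. Between the co-cultures the class ran from 0.03 in Psmb3 to 0.19 in Psmb2.

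The constitutive catalytic subunits moved little. Psmb5, which carries the chymotrypsin-like site, read 12.39 and 12.42 alone, 12.41 and 12.39 beside B cells, then 12.50 and 12.52 beside neutrophils, with the neutrophil arrays above the rest by 0.11 ± 0.09 and 0.10 ± 0.09 (SE of the fit over all genes). Psmb6, which carries the caspase-like site, read 9.34 and 9.35 alone, 9.12 and 9.10 beside B cells, then 9.21 and 9.34 beside neutrophils. Both its B-cell arrays were below the others, and the difference from culture alone was -0.23 ± 0.09 (adjusted p = 1.00, limma; unadjusted p = 0.037). Psmb7, which carries the trypsin-like site, read 10.31 and 10.29, 10.40 and 10.11, and 10.30 and 10.34, and its B-cell arrays spanned all the others.

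All 3 inducible catalytic subunits had their highest mean beside neutrophils, and only in Psmb9 did the neutrophil arrays stand apart from both other groups. Psmb9 read 9.32 and 9.46 alone, 9.44 and 9.32 beside B cells, then 9.67 and 9.72 beside neutrophils. Both neutrophil arrays lay above all 4 others, which overlapped. Of bright genes, 52.1% were apart and higher against B-cell co-culture and 60.1% against culture alone. The difference was 0.32 ± 0.10 from B-cell co-culture, or 1.25-fold (95% interval 0.09 to 0.55, adjusted p = 0.180, limma), and 0.30 ± 0.10 from culture alone, or 1.23-fold (0.08 to 0.53, adjusted p = 0.184), which did not pass.

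Psmb8 read 10.12 and 9.92 alone, 9.91 and 9.79 beside B cells, then 9.97 and 10.12 beside neutrophils. The neutrophil arrays lay above the B-cell arrays by 0.19 ± 0.11 (adjusted p = 0.322, limma) but within the spread of the alone arrays, from which they differed by 0.02 ± 0.11. Psmb10 read 10.83 and 10.91 alone, 10.96 and 10.49 beside B cells, then 11.08 and 10.86 beside neutrophils. Its lowest array was B-cell replicate 2, the groups overlapped, and the difference between the co-cultures was 0.24 ± 0.16 (adjusted p = 0.362).

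The subunits of the PA28 activator went different ways. Psme1 read 10.58 and 10.63 alone, 10.54 and 10.29 beside B cells, then 10.70 and 10.68 beside neutrophils, with no overlap between groups, and differed by 0.28 ± 0.11 between the co-cultures (adjusted p = 0.220, limma). Psme2 read 8.67 and 8.77 alone, 8.91 and 9.03 beside B cells, then 8.96 and 8.79 beside neutrophils. Here both co-cultures lay above culture alone, by 0.25 ± 0.10 with B cells and 0.15 ± 0.10 with neutrophils, while the co-cultures overlapped and differed by -0.09 ± 0.10. Over the 5 genes of the inducible set the median difference was 0.24 between the co-cultures, 0.10 from neutrophils to culture alone and -0.14 from B cells to culture alone, beside 0.13, 0.11 and -0.01 for bright genes. The medians of the 13 constitutive core genes were 0.13, 0.03 and -0.04.

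**Figure D2:**
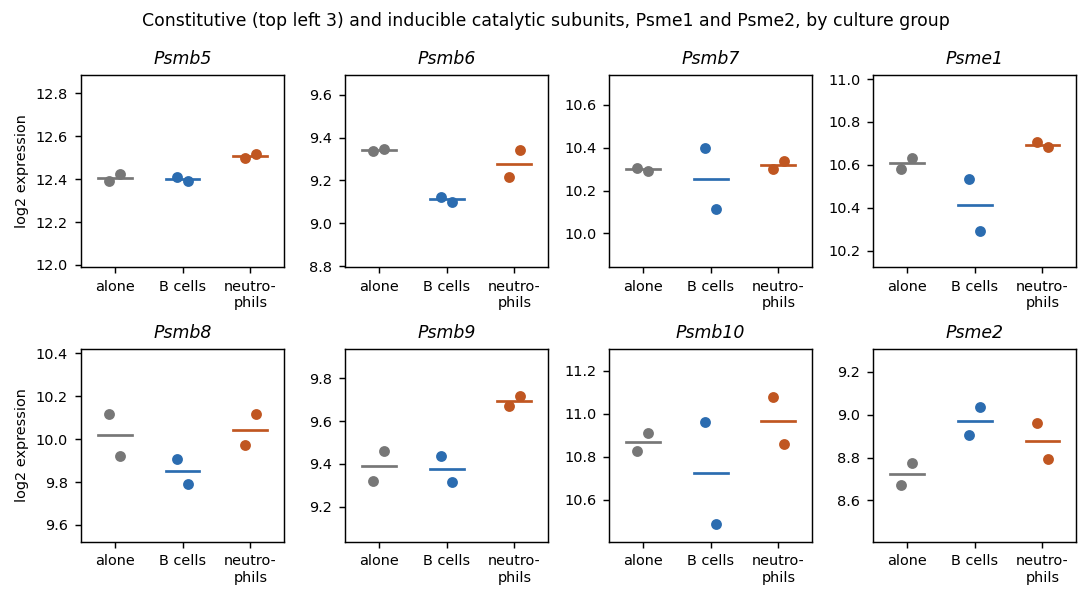
Log2 expression (y axis) on each array by culture group (x axis) for Psmb5, Psmb6 and Psmb7 (top), the inducible subunits that replace them in the same order (bottom), and Psme1 and Psme2 (right); points are arrays and lines are group means, and every panel spans the same range of log2 units. The neutrophil arrays of Psmb9 (9.67 and 9.72) lie above all other arrays of that gene, while those of Psmb8 (9.97 and 10.12) lie within the spread of culture alone.

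Each inducible gene was also set against the constitutive gene of the same position, as the log2 difference between both on an array. Only the change of that difference between groups can be read, and it is one of RNA, while exchange of the subunits themselves takes place in the protein complex and was not measured. For Psmb9 minus Psmb6, set to a mean of 0 in culture alone, the arrays stood at -0.06 and 0.06 alone, 0.27 and 0.17 beside B cells, then 0.41 and 0.33 beside neutrophils. The order alone, B cells, neutrophils held without overlap, and the change was 0.37 from culture alone to neutrophils, 0.22 from culture alone to B cells and 0.15 between the co-cultures. How often other pairs of genes show such an order was not counted. The step with B cells came with the lower Psmb6 of those arrays. Between the co-cultures both genes were higher with neutrophils, Psmb9 by 0.32 and Psmb6 by 0.17. For Psmb8 minus Psmb5 the neutrophil arrays stood at -0.14 and -0.02 and the alone arrays at 0.11 and -0.11, so the groups overlapped, and the change from culture alone was -0.08. For Psmb10 minus Psmb7 the neutrophil arrays stood at 0.21 and -0.05 and the B-cell arrays at -0.00 and -0.20, which overlapped, and the change from culture alone was 0.08, or -0.05 without neutrophil replicate 1 and 0.21 without neutrophil replicate 2. With 2 arrays against 2 an exact two-sided permutation test cannot give a p below 0.333, so these changes are descriptions.

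In the regulatory particle (17 genes) the median difference was 0.15 between the co-cultures, 0.09 with neutrophils against culture alone and -0.01 with B cells against culture alone. The 6 ATPases of the base, which unfold the substrate, were all higher with neutrophils than alone with arrays apart, from 0.03 in Psmc3 to 0.24 in Psmc5, where 60.1% of bright genes were apart and higher. None of the 6 passed limma's test, and at an unadjusted p under 0.05 the count was 0 too. Psmc5 read 8.72 and 8.70 alone, 8.87 and 8.59 beside B cells, then 8.95 and 8.94 beside neutrophils (adjusted p = 0.306 against alone). The B-cell arrays of this gene lay on either side of culture alone. Between the co-cultures the ATPases ran from -0.03 in Psmc4 to 0.27 in Psmc1, and with B cells against alone from -0.14 in Psmc2 to 0.11 in Psmc4.

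Of the other base subunits, Psmd2, a scaffold that docks ubiquitin-binding factors, read 11.31 and 11.36 alone, 11.60 and 11.50 beside B cells, then 11.57 and 11.58 beside neutrophils. Both co-cultures stood apart from culture alone on the higher side, by 0.21 ± 0.09 with B cells and 0.24 ± 0.09 with neutrophils (adjusted p = 1.00 and 0.239, limma), while the co-cultures differed by 0.03. The ubiquitin receptor Psmd4 differed by -0.02, -0.03 and -0.01 in the 3 comparisons, and the scaffold Psmd1 by 0.10, 0.11 and 0.01.

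In the lid, all 8 genes had a positive difference between the co-cultures, from 0.08 in Psmd12 to 0.28 in Psmd7, where 80.1% of bright genes were positive. Psmd7, the partner of the deubiquitinase Psmd14, read 10.99 and 10.92 alone, 10.92 and 10.76 beside B cells, then 11.08 and 11.15 beside neutrophils, with the neutrophil arrays highest (adjusted p = 0.206 between the co-cultures, limma). Psmd14 itself differed by 0.10 ± 0.10 between the co-cultures and by 0.09 ± 0.10 from culture alone. Psmd6 read 9.70 and 9.59 alone, 9.93 and 9.35 beside B cells, then 9.97 and 9.81 beside neutrophils, and the distance between its B-cell arrays was larger than its difference of 0.25 between the co-cultures. Psmd13 was lowest with B cells against alone, at -0.17, and the rest of the lid lay between that value and 0.00.

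The chaperones that assemble the core held both the highest and the lowest difference between the co-cultures. Psmg4 read 8.68 and 8.67 alone, 8.59 and 8.26 beside B cells, then 8.68 and 8.82 beside neutrophils, a difference of 0.33 ± 0.12 (adjusted p = 0.217, limma), and against culture alone its groups overlapped. Its binding partner Psmg3 read 8.56 and 8.52 alone, 8.65 and 8.76 beside B cells, then 8.57 and 8.57 beside neutrophils, and was the 1 member lower with neutrophils than with B cells without overlap, at -0.14 ± 0.09. The other pair was higher with neutrophils than in both other groups, with differences of 0.25 and 0.16 for Psmg1 and 0.27 and 0.26 for Psmg2.

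Among the base chaperones, Psmd10 read 9.41 and 9.27 alone, 9.59 and 9.02 beside B cells, then 9.66 and 9.46 beside neutrophils, and its B-cell arrays spanned a wider range than its differences of 0.25 and 0.22. Psmd5 differed by 0.16 in both comparisons with neutrophils, and Psmd9 by 0.15 and 0.06. Of the other activators, the nuclear Psme3 had means of 10.04 ± 0.05 alone (SD, n = 2), 10.12 ± 0.01 beside B cells and 10.24 ± 0.04 beside neutrophils, and Psme4 read 10.44 and 10.40, 10.49 and 10.32, and 10.64 and 10.62. Both were highest on the neutrophil arrays, by 0.20 ± 0.09 and 0.21 ± 0.10 over culture alone (adjusted p = 0.292 and 0.312, limma). The inhibitor Psmf1 differed by -0.01, 0.05 and 0.06 in the 3 comparisons.

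The tissue-restricted subunits were dim, and their values are compressed near background. Psma8, a subunit of the testis, read 7.21 and 6.98 alone, 6.72 and 6.92 beside B cells, then 6.88 and 6.68 beside neutrophils, all 4 co-culture arrays being below both alone arrays, with a difference of -0.32 ± 0.13 from culture alone with neutrophils (adjusted p = 0.249, limma). Psmb11, a subunit of the cortical thymic epithelium, differed by -0.04, 0.02 and 0.06. Genes of this brightness had negative medians with neutrophils, -0.11 and -0.07 for the 5254 genes with a mean from 6 to 7.

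**Figure D3:**
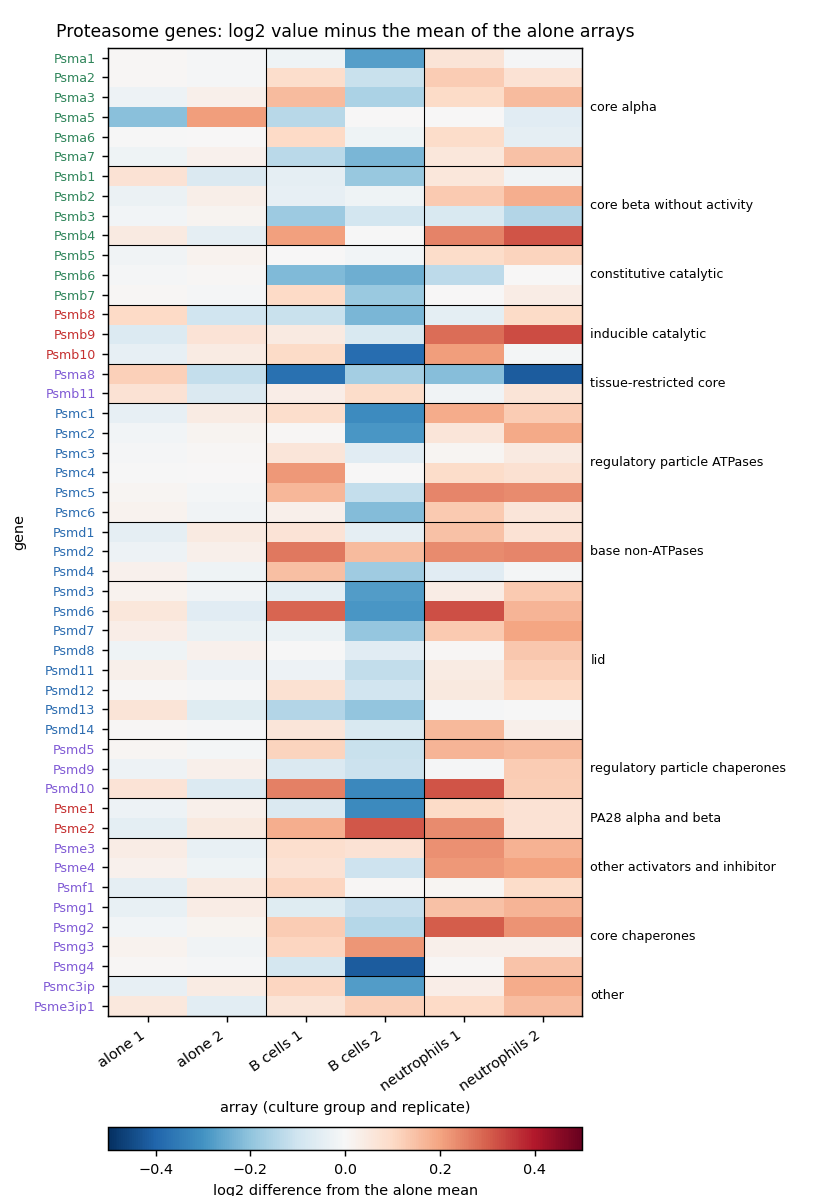
Log2 value of each proteasome gene (rows, by class) on each array (columns) minus the mean of the alone arrays of that gene, on a colour scale from -0.5 to 0.5. B-cell replicate 2 is blue in most rows, being the lowest array in 34 of 49 genes, and the neutrophil columns are mostly pale red.

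B-cell replicate 2 was the lowest of the 6 arrays in 34 of 49 members (69.4%), in 56.6% of bright genes and in 31.7% of all genes. The mean over all members, set against culture alone, was 0.03 and -0.12 on the B-cell arrays and 0.09 and 0.10 on the neutrophil arrays. The means of bright genes were 0.04 and -0.07, and 0.07 and 0.09. The neutrophil arrays lay above culture alone by about as much in the proteasome genes as in bright genes, and their gap to B-cell replicate 2 was wider than that to replicate 1.

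**Figure D4:**
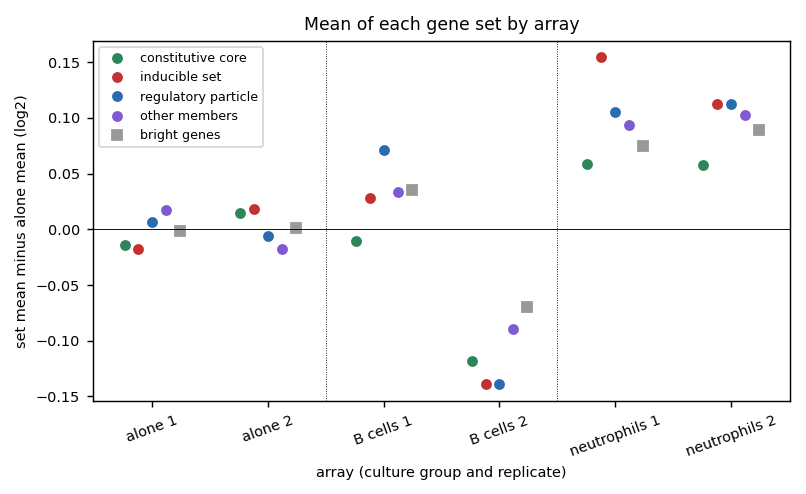
Mean of each set of genes on each array (x axis) minus its mean over the alone arrays (y axis, log2), for the constitutive core, the inducible set, the regulatory particle, the other members and bright genes (squares). All sets lie above 0 on both neutrophil arrays and below 0 on B-cell replicate 2, where all members together stand at -0.12 and bright genes at -0.07.

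The differences varied with brightness. Among genes with a mean from 10 to 11, which held 21 members, the median difference between the co-cultures was 0.16 for the members and 0.15 for all 1866 genes, and 0.10 and 0.13 for neutrophils against culture alone. Among genes with a mean from 9 to 10, with 11 members, the medians were 0.19 and 0.18, and 0.10 and 0.15. Dimmer genes went the other way, as the mean of 1394 olfactory and vomeronasal receptor genes, which serve sensory neurons, was 5.56 and 5.51 alone, 5.27 and 5.59 beside B cells, then 5.13 and 5.05 beside neutrophils. With that mean as a covariate, the median of the members was 0.00 between the co-cultures and -0.09 for neutrophils against culture alone. That of bright genes was -0.02 and -0.07, and that of the regulatory particle between the co-cultures was -0.06. The receptor mean was itself lowest on both neutrophil arrays, so this fit separates it poorly from the culture group. In this fit 0 of all genes passed in either comparison, and it cannot decide whether the direction of the family holds. What moves the receptor mean was not tested.

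**Figure D5:**
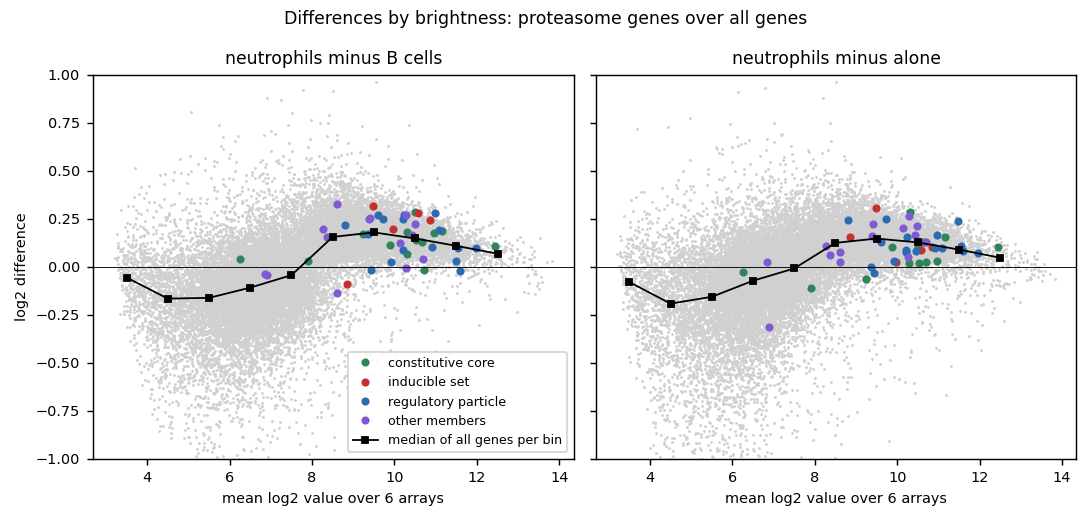
Log2 difference (y axis) against the mean log2 value over the 6 arrays (x axis) for all genes (grey), the proteasome genes (coloured) and the median of all genes per unit of brightness (black squares); genes beyond the axis are not drawn. The proteasome genes scatter around the black line, whose median is 0.15 (left) and 0.13 (right) for genes from 10 to 11.

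Other genes of the pathway were taken from a list of 41, of which 31 were measured. They comprised proteasome maturation and docking factors, transcription factors of proteasome and interferon responses, and the peptide transport and loading genes that use immunoproteasome products. In neutrophil minus B-cell co-culture, 31 of 31 had a positive difference with a median of 0.14, where 80.1% of bright genes were positive with a median of 0.13. In limma's test 1 of the 31 passed. That gene was Irf9, which encodes the DNA-binding subunit of the factor that type I interferon activates. It read 8.19 and 8.15 alone, 8.19 and 8.25 beside B cells, then 9.15 and 9.12 beside neutrophils, and rose by 0.92 ± 0.09 against B-cell co-culture (1.89-fold, adjusted p = 0.0211) and by 0.96 ± 0.09 against culture alone (adjusted p = 0.00801). Against culture alone 30 of 31 differences were positive, with a median of 0.13, beside 79.7% and 0.11 for bright genes, and of the list only Irf9 passed. With B cells against culture alone 11 of 31 were positive, beside 44% of bright genes, and 0 passed limma's test or an unadjusted p of 0.05.

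Irf9 lies in a run of 5 neighbouring genes on chromosome 14, in the order Psme1, Emc9, Psme2, Rnf31 and Irf9, and Psmb9 and Psmb8 alternate with Tap1 and Tap2 in a run of 4 on chromosome 17. Tap1 and Tap2, which encode the peptide transporter, read 9.96 and 9.87, 9.88 and 9.83, and 10.02 and 9.98 for the first, and 8.08 and 8.11, 8.11 and 8.06, and 8.18 and 8.37 for the second (alone, B cells, neutrophils). Their neutrophil arrays were highest, with differences of 0.14 and 0.19 between the co-cultures that did not pass (adjusted p = 0.367 and 0.307, limma). Only 226 bases separate Psmb9 from Tap1 in the annotation, so the promoter window of Psmb9 spans the space between them.

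Pomp, which matures the core and is known to serve immunoproteasome assembly in particular, read 10.25 and 10.33 alone, 10.11 and 10.17 beside B cells, then 10.55 and 10.43 beside neutrophils. Its neutrophil arrays were highest and its B-cell arrays lowest, and it differed by 0.35 ± 0.10 between the co-cultures (adjusted p = 0.157, limma) and by 0.20 ± 0.10 from culture alone. Stat2, the partner of Irf9, differed by 0.32 ± 0.10 and 0.16 ± 0.10, and Nlrc5, the transactivator of class I antigen presentation genes, by 0.21 ± 0.10 and 0.19 ± 0.10. Irf1 differed by 0.10 ± 0.11 and 0.14 ± 0.11, and Irf8 by 0.12 ± 0.14 and 0.15 ± 0.14. The co-cultures overlapped in both, and Irf8 also overlapped with culture alone. Nfe2l1, the transcription factor that restores proteasome gene expression when proteasome activity falls, differed by 0.18 and 0.09. None of these differences passed.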

How the data were processed

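RNA of 6 samples was measured on Affymetrix arrays, 1 array each. The deposited table holds log2 values, 1 per probe set and array. The authors computed them with RMA, according to the submitters' processing notes. RMA subtracts background, normalises between arrays and summarises probes, so a change shared by most genes may be hidden and dim values are compressed. Differences between whole arrays still remained, with lower quartiles of the genes from 6.20 to 6.41. The array model, the software version and further centring are not given in the sources used here. Of 41345 probe sets, 23521 named 1 gene, 1814 several and 16010 none here. Only the first were used, with the brightest probe set per gene. Group means of all 22180 genes were fitted with limma 3.58.1 (lmFit, eBayes, two-sided, 3 residual degrees of freedom, prior 5.55) in R 4.3.3, with p adjusted over all genes (Benjamini-Hochberg, threshold 0.05). The fit was run on simulated data with independent noise for each gene and array. Those data held no shift shared by the genes of an array, so they do not cover the array-wide differences seen here. A 95% interval comes from that fit, and arrays of 2 groups are called apart where they do not overlap. The number of arrays limits the precision.

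The members, their classes, the pathway list and the markers of neutrophils, B cells, plasma cells, monocytes and macrophages, dendritic cells, T and NK cells and erythroid cells were chosen with earlier results of these data known. Named are the inducible subunits and their counterparts, the other activators and inhibitor, the members with the largest and smallest difference per class and comparison, tissue-restricted members, symbols that are not subunits, and pathway genes next to members or known as their regulators or partners, the last chosen after their values were seen. Nothing in the labels says that replicate numbers pair the arrays, so the main fit held no block. Deviations of same-numbered arrays correlated at -0.074, 0.065 and -0.151 between groups. Without a reference value these correlations cannot exclude a pairing. Alternatives were quantile normalisation, median centring, bright genes only, trend and robust eBayes, mean of probe sets, 4-array fits, the replicate block, the receptor covariate and leaving out each array. Figures used matplotlib 3.10.9 and Python 3.11.15.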

Additional observations from a re-analysis of the deposited data

How the results depend on the processing

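In every setting other than leaving out B-cell replicate 1, 0 members passed limma's test in each comparison. The count in neutrophil minus B-cell co-culture was 0 to 17 when 1 array was left out, and 0 in the other comparisons. Quantile normalisation gave medians of 0.060 for all members, 0.060 for the constitutive core and 0.048 for the regulatory particle in that comparison, beside 0.056 for bright genes. Centring on array medians gave the core 0.22 there and 0.095 against culture alone, beside 0.22 and 0.17 for bright genes. With the receptor covariate the medians of all members, core, inducible set and regulatory particle were 0.0023, 0.038, 0.061 and -0.059 between the co-cultures and -0.091, -0.091, -0.13 and -0.14 for neutrophils against alone. With B cells the core and the particle then stood at -0.11 and -0.11 against alone. Only with the receptor covariate, itself lowest on both neutrophil arrays, did single genes change sign by more than their SE in both fits. Between the co-cultures these were Psma3 (-0.21), Psmc3ip (-0.24), Psmd10 (-0.24) and Psmd6 (-0.27). For neutrophils against alone they were Psma3 (-0.32), Psmc1 (-0.37), Psmc2 (-0.31), Psmd10 (-0.44) and Psmd6 (-0.43). Leaving out 1 array moved the median between the co-cultures between 0.068 and 0.21 for all members, 0.072 and 0.21 for the core, 0.14 and 0.38 for the inducible set and 0.068 and 0.19 for the particle, lowest without B-cell replicate 2 and highest without B-cell replicate 1. For neutrophils against alone it moved the core between 0.029 and 0.094 and the inducible set between 0.074 and 0.21, the last without neutrophil replicate 1 and 2. For B cells against alone it moved all members between -0.11 and 0.062, the core between -0.11 and -0.017, the inducible set between -0.23 and 0.047 and the particle between -0.12 and 0.062, so that B-cell replicate 2 decides the sign of 3 of them. The change of Psmb8 minus Psmb5 ran from -0.19 to 0.036 for neutrophils and from -0.28 to -0.051 for B cells against alone. Both were lowest without alone replicate 2 and highest without alone replicate 1. That of Psmb10 minus Psmb7 ran from -0.045 to 0.21 for neutrophils against alone and from 0.054 to 0.31 between the co-cultures. These 2 ranges were lowest without neutrophil replicate 1 and highest without neutrophil replicate 2. With the replicate number as a block, 0 members passed in each comparison, 9, 373 and 0 of all genes did, and no member changed sign. With the numbers of the neutrophil arrays crossed, 0 members and 69 genes passed between the co-cultures. Over all settings the genes called between the co-cultures ran from 0 (receptor covariate) to 5453 (without B-cell replicate 1), and for neutrophils against alone from 0 (receptor covariate) to 1338 (4-array fit). The causes of these changes were not tested.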

Other observations

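Probe sets outside the gene table also bear on proteasome genes. The brighter probe set that names both Psma4, an alpha subunit, and AY074887 read 9.80 and 9.72 alone, 9.82 and 9.51 beside B cells, then 9.90 and 9.83 beside neutrophils, a difference of 0.20 ± 0.13 between the co-cultures. The probe set that names Psme2 with 9930111J21Rik1 and 9930111J21Rik2 read 9.94 and 9.97 alone, 9.63 and 10.05 beside B cells, then 9.44 and 9.53 beside neutrophils. It was lowest on the neutrophil arrays, at -0.47 ± 0.15 from culture alone, where the probe set of Psme2 alone had 0.15. The dimmer probe set of Psmc2 differed by -0.23 ± 0.14 between the co-cultures, opposite in sign to the 0.27 of the brighter one.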
